A study of Mus musculus with 22 samples.

Results

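The 40 genes described here encode the fibrosis and extracellular matrix programme of the kidney: 12 collagen chains, 10 other matrix glycoproteins and elastic fibre proteins, 3 small leucine-rich proteoglycans, 3 lysyl oxidases, 6 matrix proteases or their inhibitors, 3 myofibroblast genes, and Tgfb1 with the 2 platelet-derived growth factor receptors. They were chosen by name from the deposited tables, and all 40 were found among the 16556 genes listed and all 40 passed the filter on low counts that left 15064 genes for testing. RNA came from kidney cortex of male C57BL/6J mice, 1 library per title, 22 libraries in all. Pt-CrAT animals carried a deletion of carnitine acetyltransferase (gene Crat) made with a Ggt-driven Cre recombinase, whose promoter targets proximal tubular cells. Animals labelled fl/fl, with no Cre promoter listed, served as controls. There were 3 libraries of each genotype at 12 months (titles with LFD), 3 of each at 15 months and 5 of each at 24 months (both with chow in the titles). LFD is not explained in the labels, and since 12 months differs from the later ages in this word too, no level was tested between 12 months and the later ages. Age was therefore compared between 15 and 24 months, where both genotypes carry chow, and genotype within each age.

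Fibrosis is the build-up of matrix between tubules. Fibroblasts and pericytes, marked by Pdgfra and Pdgfrb, secrete fibrillar collagens, and when they become myofibroblasts they make smooth muscle actin (Acta2). Lysyl oxidases crosslink collagen and elastin, metalloproteases cut matrix, and the Timp proteins inhibit those proteases. Basement membrane collagens, by contrast, are made by tubules, glomeruli and vessels, and Acta2 and Tagln are also made by arterial smooth muscle. In whole cortex, a change in the number of cells of a type cannot be told apart from a change in RNA per cell.

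Total counts were 12175804 to 17447367 in 21 libraries and 53157575 in 1 library, Pt-CrAT CrAT12MLFD345 at 12 months. Levels are given as CPM, each count as a share of its library's TMM-scaled total, and the 3' tag method counts transcripts near their ends. Crat, the targeted gene, was at 78.9 ± 22.5 CPM in fl/fl, against 62.5 ± 19.4 CPM in Pt-CrAT at 12 months (SD, n = 3 each) and at 74.7 ± 24.4 and 36.2 ± 4.41 CPM at 24 months (SD, n = 5 each). At 15 months it ran against the labels, with 45.3 ± 13.3 CPM in the libraries labelled fl/fl and 69.1 ± 5.27 CPM in those labelled Pt-CrAT (SD, n = 3 each). The Crat levels of the genotypes overlapped at 12 months and not at 15 or 24 months. At 15 months the highest library labelled fl/fl was at 60 CPM and the lowest labelled Pt-CrAT at 63.1 CPM. By the edgeR test its genotype difference passed at no age (adjusted p = 0.41 at 12, 0.581 at 15 and 0.178 at 24 months). The edgeR test that this difference is equal at all 3 ages did pass for Crat (adjusted p = 0.0319). In libraries labelled Pt-CrAT, Crat was lower at 24 than at 15 months (log2 fold change -0.93, SE 0.24, adjusted p = 0.0165). The part of Crat that was deleted is not given in the sources used here, and tags near its 3' end may not read the deletion. The proximal tubule marker list was lowest in Pt-CrAT libraries CrAT24Mchow123 and CrAT24Mchow136 at 24 months, with summed levels of 12400 and 10670 CPM against 29630 to 40700 CPM in the other 3 of that group. A sum can rest on its most abundant genes. Between genotypes at 24 months the 10 genes of this list ran from -0.91 (Kap) to 0.30 (Lrp2) on the log2 scale. Of them 8 were below 0 and 2 above, and none passed.

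Matrix and myofibroblast genes were higher at 24 than at 15 months. Over the mean of both genotypes, 16 of 40 members (40%) passed the threshold (adjusted p under 0.05, edgeR quasi-likelihood test), all 16 of them higher, where 16.4% of all genes tested passed, 9.41% as higher and 6.97% as lower. The fold change was above 1 for 37 of 40 members, against 51.9% of all genes. The median log2 fold change of the members was 0.42, against 0.02 over all genes tested. This contrast uses all 6 libraries at 15 months with equal weight for each labelled genotype. The count was 10 without Pt-CrAT library CrAT15Mchow204 or without fl/fl library Wt15Mchow227 at 15 months, and 18 without Pt-CrAT libraries CrAT24Mchow123 and CrAT24Mchow136 at 24 months.

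All 3 myofibroblast genes rose with age. Acta2 (smooth muscle actin, the usual marker of myofibroblasts) was at 22.1, 27 and 18.3 CPM in fl/fl at 15 months and 39.8, 45.9, 32.4, 38.8 and 29 CPM at 24 months. In Pt-CrAT it was at 24.8, 24.1 and 21.9 CPM at 15 months and 56, 53.8, 46.4, 39.1 and 47.5 CPM at 24 months. In both genotypes every 24-month library lay above every 15-month library. The change was 1.84-fold over the mean of genotypes (log2 fold change 0.88, SE 0.14, adjusted p = 0.000282). Vim, the intermediate filament protein vimentin of mesenchymal cells, went from 12.5 ± 2.38 to 17.1 ± 2.46 CPM in fl/fl and from 12.2 ± 3.44 to 22.9 ± 3.75 CPM in Pt-CrAT (SD, n = 3 and 5; log2 fold change 0.68, SE 0.17, adjusted p = 0.00967). Tagln, an actin-binding protein of smooth muscle, rose less surely (log2 fold change 0.72, adjusted p = 0.033), passed in 14 of 24 alternative analyses, and its exons overlap those of Pcsk7 on the other strand. The strand setting of the counting is not given in the sources used here.

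Of the crosslinking enzymes, Lox and Loxl1 rose and Loxl2 did not pass. Lox (lysyl oxidase) was at 1.68, 2.54 and 0.845 CPM in fl/fl at 15 months and at 4.75, 8.16, 5.73, 4.01 and 2.6 CPM at 24 months. Pt-CrAT libraries had 1.81, 3.33 and 1.45 CPM at 15 months and 4.19, 3.78, 5.41, 8.08 and 5.3 CPM at 24 months. The ages did not overlap within either genotype, although raw counts were low, from 11 to 194 reads. Its 2.67-fold rise was the largest of the members that passed this contrast (log2 fold change 1.42, SE 0.27, adjusted p = 0.00156). Loxl1, which crosslinks elastin, was 0.40 higher on the log2 scale (adjusted p = 0.0325) and passed in 20 of 24 alternatives. Loxl2 was at 1.52 ± 0.47 and 1.61 ± 0.428 CPM in fl/fl and at 1.58 ± 0.586 and 1.93 ± 0.164 CPM in Pt-CrAT at 15 and 24 months (log2 fold change 0.18, adjusted p = 0.667).

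The protease and inhibitor genes split. Timp2, which inhibits metalloproteases and also takes part in activating pro-MMP2 at the cell surface, was at 153, 179 and 125 CPM at 15 months and 209.7, 309, 217, 267 and 223 CPM at 24 months in fl/fl. Its Pt-CrAT levels were 167.6, 151 and 115 CPM and 316, 233, 234, 255 and 256 CPM. No library of 24 months fell to the level of any 15-month library of its genotype (1.7-fold; log2 fold change 0.76, SE 0.11, adjusted p = 0.000188). Mmp14, the membrane-bound protease that activates pro-MMP2, was at 14.2, 15.1 and 9.99 CPM and 25.9, 20.1, 28.9, 19 and 15.9 CPM in fl/fl and at 13.9, 18.2 and 11.3 CPM and 25.4, 27.4, 25, 27.6 and 26.2 CPM in Pt-CrAT. The 5 Pt-CrAT libraries of 24 months sat close together, and in both genotypes the ages did not overlap (log2 fold change 0.80, SE 0.14, adjusted p = 0.000799). Mmp2 itself did not pass: its log2 fold change was 0.73 (SE 0.38) in fl/fl and -0.28 (SE 0.38) in Pt-CrAT. Timp3, the inhibitor that stays bound to the matrix, was at 1590.0 ± 113 and 1617 ± 135.8 CPM in fl/fl and at 1837 ± 249.1 and 1461 ± 301 CPM in Pt-CrAT (log2 fold change -0.15, adjusted p = 0.34). Its exons overlap Syn3 on the other strand.

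Timp1, an inhibitor widely used as a marker of fibrosis, passed in Pt-CrAT and not in fl/fl, on 1 to 46 reads per library. It was at 0.452, 0.495 and 0.0804 CPM in the 15-month libraries labelled Pt-CrAT and at 1.25, 1.38, 2.44, 0.662 and 1.36 CPM at 24 months (log2 fold change 2.01, SE 0.60, adjusted p = 0.0329). In fl/fl it was at 0.459, 1.1 and 0.384 CPM and 0.629, 0.933, 0.377, 1.08 and 0.914 CPM, with overlapping ages (log2 fold change 0.26 (SE 0.56), adjusted p = 0.818). The difference between these changes was 1.76 (SE 0.83) on the log2 scale and did not pass (adjusted p = 0.328). With each library left out in turn the Pt-CrAT change was 1.59 to 2.37 and its adjusted p 0.0284 to 0.173.

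**Figure D1:**
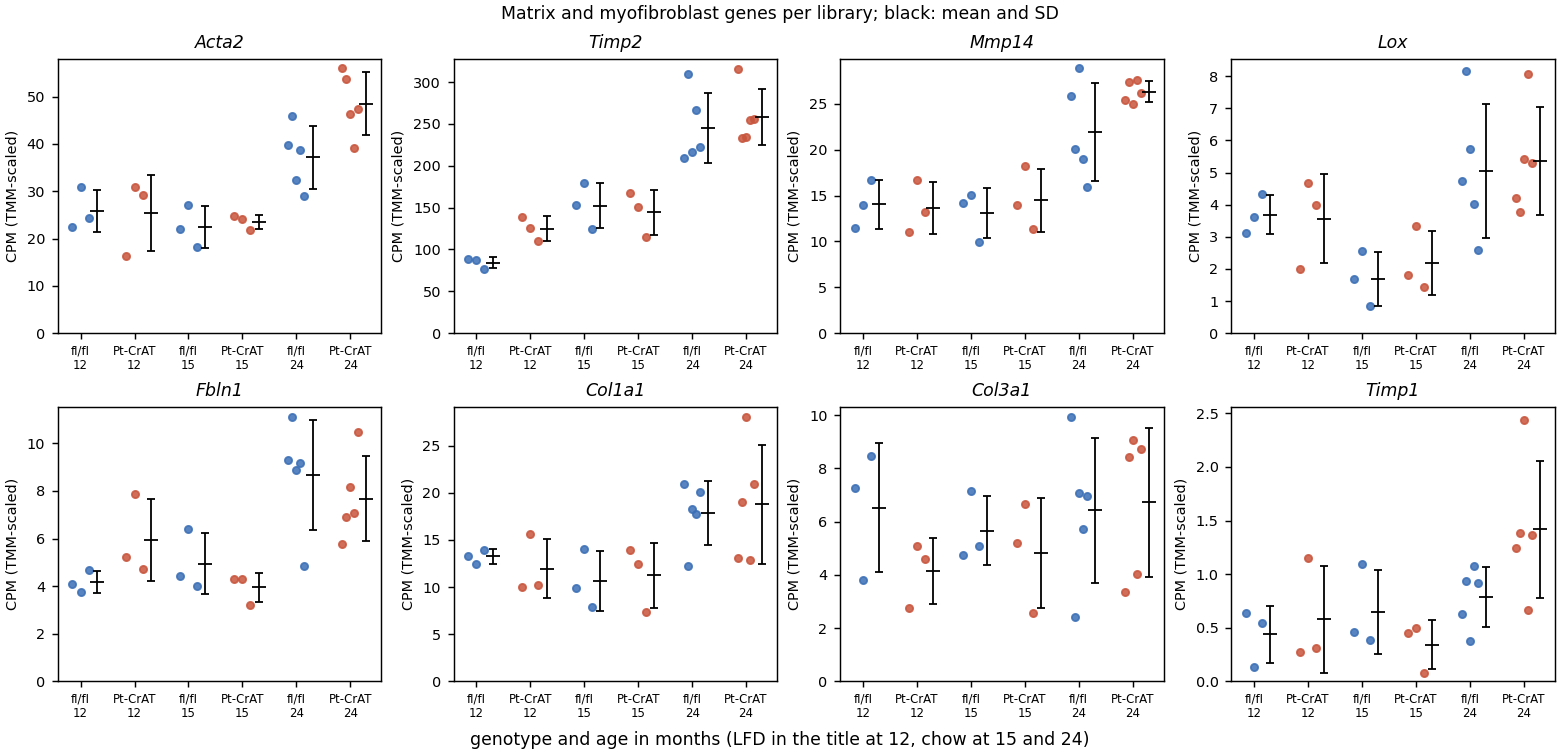
Levels of 8 members in each library (points; blue fl/fl, red Pt-CrAT) against genotype and age in months, with the group mean and SD in black and CPM from 0 on each vertical axis. Acta2, Timp2, Mmp14 and Lox at 24 months lie above the 15-month libraries of the same genotype, while Col3a1 overlaps between all 6 groups.

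Collagens rose in part. Of the 5 fibrillar and associated collagens, all 5 had a positive log2 fold change over the mean of genotypes (median 0.33) and Col1a1 alone passed. Col1a1, the alpha 1 chain of type I collagen, was at 9.87, 14.1 and 7.92 CPM in fl/fl at 15 months and 21, 12.3, 18.3, 17.7 and 20.1 CPM at 24 months. In Pt-CrAT it was at 13.9, 12.5 and 7.32 CPM and 13, 19, 28.1, 12.8 and 21 CPM. The ages overlapped within each genotype, and neither genotype passed alone (log2 fold change 0.75, SE 0.18, adjusted p = 0.00903 over the mean). Col1a2, its partner chain, was at 26.6, 25.5 and 17.7 CPM and 35.6, 17.9, 23.5, 20.1 and 23.1 CPM in fl/fl, with overlapping ages (0.05, SE 0.25). In Pt-CrAT it was at 18, 14.4 and 14.4 CPM at 15 months and 23.8, 40.2, 31.4, 26.5 and 27.8 CPM at 24 months, without overlap (log2 fold change 0.94, SE 0.26, adjusted p = 0.0221).

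Col3a1, the chain of type III collagen that is laid down early in scars, was at 4.74, 7.15 and 5.07 CPM in fl/fl at 15 months and 9.92, 2.41, 7.09, 5.71 and 6.96 CPM at 24 months. Pt-CrAT libraries held 5.19, 6.65 and 2.57 CPM and 3.34, 8.43, 9.07, 4.04 and 8.74 CPM. Levels at both ages overlapped, and the change of 0.33 (SE 0.28) on the log2 scale did not pass (adjusted p = 0.449). Col5a2 (0.17) and Col14a1 (0.21) did not pass either. Among the basement membrane and microfibrillar chains 3 of 7 passed, Col6a1 (log2 fold change 0.71), Col4a1 (0.42) and Col18a1 (0.26), all 7 being positive (median 0.28). Col18a1, whose end fragment is endostatin, passed in 11 of 24 alternatives. Col4a1 and Col4a2, the most common chains of basement membrane, lie head to head on chromosome 8 with annotated starts that overlap by 22 bases. Col4a2 did not pass (log2 fold change 0.28, adjusted p = 0.0811), and neither did Col6a2 (0.40), Col6a3 (0.23) and Col15a1 (0.16).

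Of the 10 glycoproteins and elastic fibre genes 3 passed, Fbln1, Eln and Tgfbi, all higher, and all 10 had a positive log2 fold change (median 0.42). Fbln1 (fibulin 1, a binding partner of elastin and fibronectin) was at 4.44, 6.39 and 4.0 CPM and 9.29, 11.1, 8.9, 9.18 and 4.85 CPM in fl/fl at 15 and 24 months. Its Pt-CrAT values were 4.29, 4.32 and 3.22 CPM and 5.77, 6.91, 8.16, 7.08 and 10.5 CPM, without overlap, and 4 of 5 fl/fl libraries at 24 months exceeded all 3 at 15 months (log2 fold change 0.88, SE 0.18, adjusted p = 0.00236). Eln (elastin) was at 3.06, 2.82 and 3.77 CPM and 6.92, 3.03, 4.52, 4.47 and 4.22 CPM in fl/fl. Pt-CrAT libraries held 3.46, 3.89 and 2.65 CPM and 5.24, 6.69, 5.67, 7.75 and 6.95 CPM, and the ages overlapped in fl/fl and not in Pt-CrAT (log2 fold change 0.74, SE 0.18, adjusted p = 0.00741). Tgfbi, a secreted collagen-binding protein named for its induction by TGF-beta, was at 10.2, 10.9 and 13 CPM and 18.2, 16.9, 18.2, 19 and 13.1 CPM in fl/fl. In Pt-CrAT the values were 15.1, 14.2 and 11.5 CPM and 18.3, 19.8, 18.3, 17.4 and 23.8 CPM, and in both genotypes the ages did not overlap (log2 fold change 0.55, SE 0.13, adjusted p = 0.00647).

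Fn1 (fibronectin) was at 12, 14.6 and 12.2 CPM in fl/fl at 15 months and 22.5, 17.1, 17, 23.6 and 17.2 CPM at 24 months. Among Pt-CrAT libraries it was at 17.7, 15.2 and 10.4 CPM and 8.13, 22.2, 19.6, 12.8 and 19.6 CPM. Its fl/fl libraries separated by age and its Pt-CrAT libraries did not, and it did not pass over the mean of genotypes (log2 fold change 0.39, SE 0.18, adjusted p = 0.147). The other 6 members of this role (Fbn1, Fbln5, Postn, Sparc, Mgp and Thbs1) did not pass, with log2 fold changes of 0.19 (Fbln5) to 0.50 (Fbn1). Postn (periostin), another common fibrosis marker, held 0 to 21 reads per library and 0 in 2 libraries, and its change was 0.45 (SE 0.53), adjusted p = 0.6. Of the proteoglycans, Bgn (biglycan) passed at 0.62 (adjusted p = 0.0234), while Dcn (decorin, 0.43, adjusted p = 0.0581) and Lum (lumican, 0.77, adjusted p = 0.216) did not.

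Tgfb1, the ligand that drives myofibroblast formation, did not pass with age. It was at 8.26, 7.35 and 4.92 CPM and 7.89, 9.72, 7.39, 6.94 and 7.31 CPM in fl/fl, with overlap. Pt-CrAT levels were 7.75, 7.36 and 8.21 CPM at 15 months and 6.49, 5.67, 7.26, 4.9 and 7.02 CPM at 24 months, each 24-month library lying lower, although the change did not pass (log2 fold change -0.31, SE 0.22, adjusted p = 0.377). Over the mean of genotypes its change was -0.06 (SE 0.15), adjusted p = 0.844. Pdgfra, the receptor that marks kidney fibroblasts, passed over the mean (log2 fold change 0.56, SE 0.16, adjusted p = 0.0176), with 7.86 ± 0.487 and 9.56 ± 1.73 CPM in fl/fl and 6.13 ± 1.36 and 11 ± 1.6 CPM in Pt-CrAT at 15 and 24 months (SD, n = 3 and 5). Pdgfrb, which marks pericytes and mesangial cells, did not pass (adjusted p = 0.0884).

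To show the sequence in front of members that rose together, the 250 bases before the RefSeq start (build GRCm38.p6) follow for the 4 members, of the 11 risen members with a window, whose window touches no annotated exon. All 4 lie on the plus strand. The windows are Mmp14 (chr14:54431348-54431597), Fbln1 (chr15:85205699-85205948), Pdgfra (chr5:75152001-75152250) and Bgn (chrX:73483351-73483600). Capitals mark GGGCGG (the GC box bound by Sp1) and CAGAC (a core bound by Smad proteins), or their reverse complements.
Mmp14: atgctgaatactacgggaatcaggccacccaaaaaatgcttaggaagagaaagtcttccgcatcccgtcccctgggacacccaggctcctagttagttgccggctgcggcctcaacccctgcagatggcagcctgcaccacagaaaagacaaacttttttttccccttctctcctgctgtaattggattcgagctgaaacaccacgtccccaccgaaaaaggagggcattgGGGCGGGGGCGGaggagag
Fbln1: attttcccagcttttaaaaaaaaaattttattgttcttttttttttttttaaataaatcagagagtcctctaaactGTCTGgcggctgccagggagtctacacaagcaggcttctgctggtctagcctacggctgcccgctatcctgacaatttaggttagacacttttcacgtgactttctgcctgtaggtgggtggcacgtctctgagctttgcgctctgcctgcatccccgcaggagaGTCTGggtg
Pdgfra: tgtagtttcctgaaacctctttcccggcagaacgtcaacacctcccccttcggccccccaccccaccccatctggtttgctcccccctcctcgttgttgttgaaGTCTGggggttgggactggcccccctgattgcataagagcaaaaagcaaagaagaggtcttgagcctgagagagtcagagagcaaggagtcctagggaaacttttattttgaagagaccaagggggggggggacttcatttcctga
Bgn: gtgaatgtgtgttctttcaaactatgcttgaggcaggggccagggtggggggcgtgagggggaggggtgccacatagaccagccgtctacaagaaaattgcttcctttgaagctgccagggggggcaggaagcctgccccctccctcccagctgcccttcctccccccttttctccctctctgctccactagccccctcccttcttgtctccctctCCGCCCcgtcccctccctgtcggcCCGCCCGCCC
Mmp14 and Bgn hold GC boxes near the start, from 19 bases before it in Mmp14 and from 34 bases before it in Bgn. Fbln1 holds CAGAC at 174 and 9 bases before the start and Pdgfra holds 1 copy, all on the minus strand. The table of promoters matched 24 of the 40 members with 29 windows. Over both strands GGGCGG was in 51.72% of member windows and 32.74% of all 32851 windows, and CAGAC in 48.28% and 42.19%. TATAAA was in 3 member windows (Col3a1, Postn and Vim; 10.34%, against 12.37% of all windows), TGANTCA in 1 (Col6a1; 3.45% against 6.75%), and the strict CArG box in none (1.47% of all windows). These shares include windows that overlap annotated exons, such as those of Acta2 (217 of 250 bases) and Vim (all 250), and Tagln has no window. GGGCGG overlaps itself in runs of GC boxes, and matches are letters, not measured binding.

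Each genotype showed the age pattern with a different number of calls. In Pt-CrAT, 11 members were higher and 1, Adamts15, was lower (12 of 40, 30%), where 11.3% of all genes passed, 5.61% as higher and 5.71% as lower. The 11 were Acta2, Timp2, Mmp14, Eln, Vim, Pdgfra, Fbln1, Col1a2, Pdgfrb, Lox and Timp1. Pdgfrb, not yet given, went from 15.1, 7.93 and 11.2 CPM to 24.4, 30.4, 21.4, 26.2 and 17.9 CPM without overlap (log2 fold change 1.08, SE 0.31, adjusted p = 0.0288), while in fl/fl it was at 18.1, 18.3 and 18.8 CPM and 31.8, 9.49, 16.6, 13.2 and 20.9 CPM with overlap. In fl/fl, 2 members passed, Timp2 and Lox, both higher (5%), where 1.30% of all genes passed, 0.823% as higher and 0.478% as lower. Positive changes were counted for 38 of 40 members in fl/fl and 35 of 40 in Pt-CrAT (52.2% and 54.3% of all genes), with medians of 0.42 and 0.50. All 24-month libraries lay above all 15-month libraries for 14 members in fl/fl and 14 in Pt-CrAT, against 8.70% and 10.5% of all genes. The ages were separated in the lower direction for no member in fl/fl and for 2 in Pt-CrAT, Adamts15 and Tgfb1 (8.26% and 11.3% of all genes). The number of calls does not show that the genotypes differ: the test of the difference itself called no member (edgeR; 5 members and 15.0% of all genes at an unadjusted p under 0.05; 0 members by DESeq2 and by limma-voom).

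**Figure D2:**
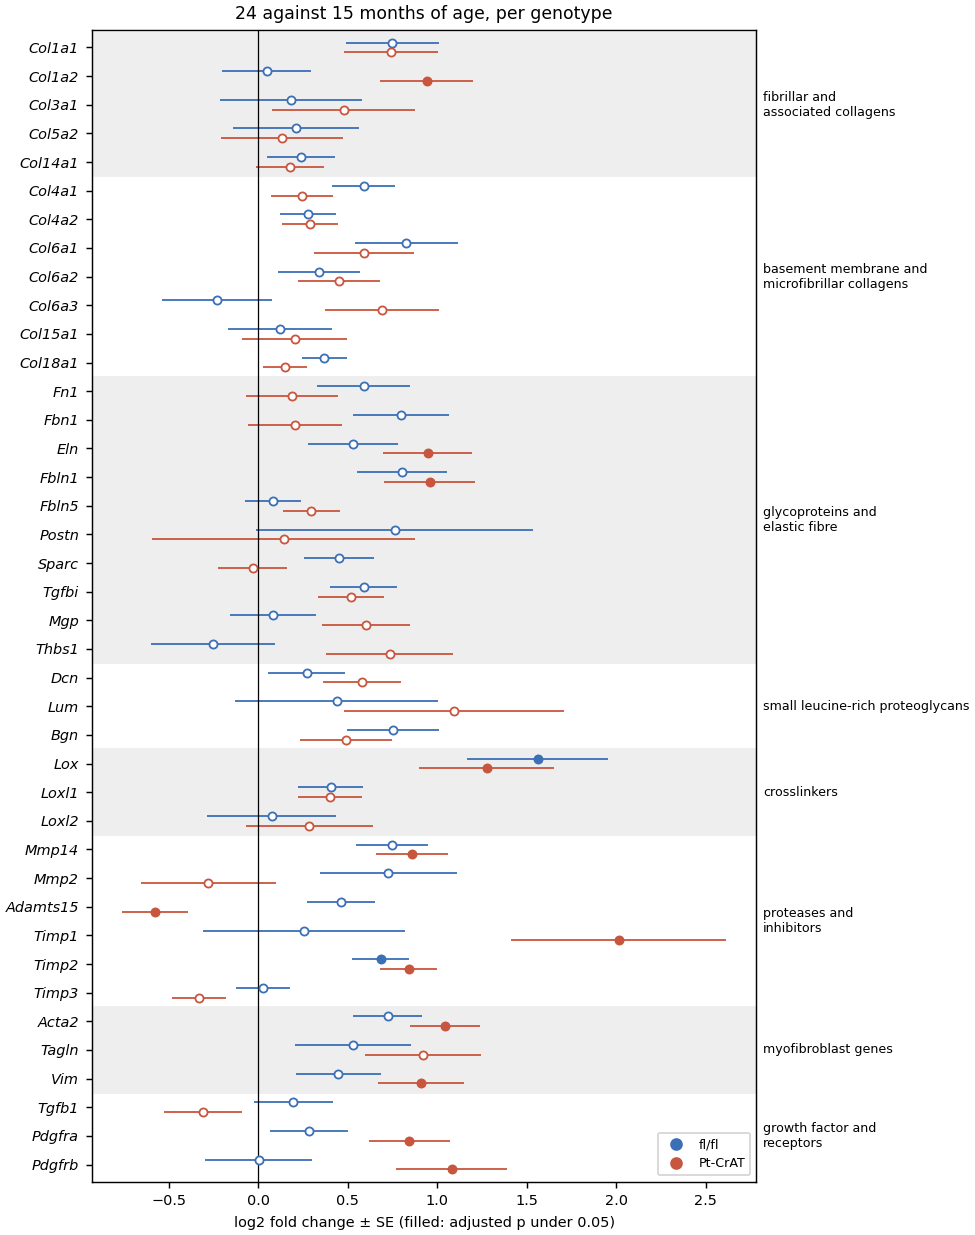
Log2 fold change from 15 to 24 months with its SE for the 40 members, grouped by role, in fl/fl (blue) and Pt-CrAT (red), filled where the adjusted p was under 0.05. Most points lie to the right of 0, with 38 of 40 positive in fl/fl and 35 of 40 in Pt-CrAT, and Adamts15 is the 1 filled point to the left.

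The calls within a genotype rested on few libraries at 15 months. In Pt-CrAT 12 calls became 2 without library CrAT15Mchow204 and 4 without library CrAT15Mchow185 at 15 months, and 7 without libraries CrAT24Mchow123 and CrAT24Mchow136 at 24 months. Acta2 and Timp2 were the 2 Pt-CrAT members that passed in all 16 alternatives. In fl/fl, the 2 calls became 0 without any 1 of the 3 libraries at 15 months or without library Wt24Mchow154, Wt24Mchow164 or Wt24Mchow165 at 24 months, and 5 without library Wt24Mchow168 at 24 months. DESeq2 called 6 members in fl/fl and 14 in Pt-CrAT, where it called 731 of 14630 and 2118 of 16235 genes with an adjusted p. The genotype names at 15 months are those of the labels, which Crat did not bear out.

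Other gene lists moved with age beside the members. Over the mean of genotypes 9.41% of all genes passed as higher and 6.97% as lower. Smooth muscle and pericyte markers that are no members passed as higher in 7 of 13, among them Tpm2 (0.95), Myh11 (1.04), Notch3 (0.72) and Cnn1 (1.40, all log2 fold changes over the mean of genotypes), with medians of their summed level of 221.6 and 271.6 CPM in fl/fl and 198.7 and 284.8 CPM in Pt-CrAT at 15 and 24 months. Urothelium and medulla markers passed as higher in 8 of 8, among them Krt15 (2.50), Upk3a (2.41), Upk1b (2.40) and Slc5a3 (0.78). Their summed level ranged over 513.4 to 961.8 CPM in fl/fl and 257.4 to 567.0 CPM in Pt-CrAT at 15 months, and over 494.6 to 925.1 and 670.5 to 1390 CPM at 24 months. Macrophage markers passed as higher in 5 of 10 (Lyz2 0.92, Adgre1 1.13, C1qc 0.54), with summed levels of 255.6 to 384.9 CPM at 15 months and 325.0 to 651.8 CPM at 24 months. Fibroblast markers that are no members passed as higher in 2 of 11, Ebf1 (0.46) and Cygb (0.70), endothelial markers in 2 of 10, Tie1 (0.55) and Flt1 (0.38), and adipocyte markers in 0 of 7 (2 at an unadjusted p under 0.05). Of the 11 fibroblast markers 7 were above 0 and 4 below. Proximal tubule markers passed as lower in 4 of 10, led by Slc5a2 (-1.02). Tubular injury genes passed as higher in 7 of 12 and lower in 2 of 12, with Lcn2 (3.04), Cdkn1a (1.27) and Vcam1 (0.69) among those higher. No gene of these lists was at 0 in every library, and the part of these cells in the members' rise was not tested.

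Further matrix genes moved unevenly with age, in the mean of genotypes, where 9.41% of all genes passed as higher and 6.97% as lower. The count of collagen processing genes lies near the higher share. Of 14 further collagens 4 passed as higher, among them Col7a1 (1.08), Col4a4 (0.39) and Col13a1 (0.57), and Col27a1 passed as lower (-0.79). Of 25 other matrix glycoproteins and proteoglycans 6 passed, all higher, with Tnc, the tenascin of wound matrix, at 1.47, Spon1 at 1.29, Ecm1 at 0.83 and Ltbp1, which stores latent TGF-beta in the matrix, at 0.49. Of 29 further proteases and inhibitors 6 passed, all higher, with Adamts4 at 1.94, Serpine2 at 0.86, Adamts10 at 0.57 and Reck at 2.52. Of 28 TGF-beta and PDGF pathway genes 5 passed as higher, among them Inhba (2.19), Grem1 (2.97) and the inhibitor Smad7 (0.51), and 1, Smad2 (-0.25, named after its value was seen), as lower. Of 17 collagen processing genes 2 passed as higher (Bmp1 0.72 and Plod2 0.39), and of 16 laminins and other basement membrane genes none did, with 6 at an unadjusted p under 0.05.

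Genotype at 24 months left the members without a call. By edgeR 0 of 40 members and 0.00% of all genes passed, 5 members and 9.35% of all genes were at an unadjusted p under 0.05, and 0 members passed by limma-voom. DESeq2 called 0 too, but gave an adjusted p to only 3 of the 40 members. The log2 fold change was above 0 for 23 of 40 members and 52.9% of all genes, with medians of 0.08 and 0.02. The member with the smallest p was Adamts15, a secreted protease that cuts the proteoglycan versican. It was at 53.2, 56.4, 60.6, 68.2 and 80.1 CPM in the 5 fl/fl libraries and 32.9, 43, 37.2, 23.2 and 32.9 CPM in those of Pt-CrAT. All 5 Pt-CrAT libraries lay below all 5 fl/fl libraries, as for 0.797% of all genes, at 1.88-fold lower (log2 fold change -0.91, SE 0.16, adjusted p = 0.077). Its adjusted p was 0.0354 without Pt-CrAT library CrAT24Mchow124 and between that value and 0.982 over the other alternatives, DESeq2 giving none.

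The genotype difference of Adamts15 varied among the 3 ages, of which 12 months also differs in the title word LFD. At 12 months it was at 67.4, 62.2 and 42 CPM in fl/fl, against 84.7, 54.5 and 57.2 CPM in Pt-CrAT, and at 15 months at 49.6, 41.9 and 47.1 CPM and 45, 54.1 and 52.1 CPM in the libraries so labelled. Both ages overlapped between genotypes (0.19 and 0.13 on the log2 scale). The test that the genotype difference is equal at all 3 ages gave an adjusted p of 0.0273, and Adamts15 was the 1 member of 40 to pass it, where 5.07% of all genes passed. At an unadjusted p under 0.05 the count was 12 members and 29.6% of all genes. Its adjusted p was 0.00243 to 0.201 over 28 alternatives, under the threshold in 24 of them, and it lost the call without fl/fl library Wt24Mchow165 at 24 months, without Pt-CrAT library CrAT12MLFD328 or CrAT12MLFD337 at 12 months, and with the library score described further on as a covariate. In age terms, it was lower at 24 than at 15 months in Pt-CrAT (log2 fold change -0.58, SE 0.18, adjusted p = 0.0452), while in fl/fl every 24-month library lay above every 15-month library without passing (0.46, SE 0.19, adjusted p = 0.167).

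The next smallest p-values at 24 months belonged to Acta2, Dcn and Eln, none of which passed. Acta2, with the values given above, overlapped between genotypes (log2 fold change 0.39, SE 0.16, adjusted p = 0.475). Dcn was at 56.6, 45.6, 48.9, 50.3 and 47 CPM in fl/fl, against 88.2, 58.5, 52.8, 84.3 and 50.2 CPM in Pt-CrAT, its highest values being those of libraries CrAT24Mchow123 and CrAT24Mchow136 (log2 fold change 0.43, SE 0.18, adjusted p = 0.486). Eln also overlapped (log2 fold change 0.47, SE 0.21, adjusted p = 0.493). All 3 myofibroblast genes had positive changes (Acta2 0.39, Tagln 0.43 and Vim 0.42) that did not pass. Col1a1 (0.07, SE 0.22), Col3a1 (0.06, SE 0.34), Fn1 (-0.24, SE 0.22), Timp1 (0.86, SE 0.45) and Tgfb1 (-0.32, SE 0.19) did not pass either.

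Genotype at 12 months gave 9 calls among the members (22.5%), 7 lower and 2 higher in Pt-CrAT, where 16.4% of all genes passed, 7.95% as lower and 8.41% as higher. The log2 fold change was above 0 for 15 of 40 members and 50.1% of all genes. Of the 40 members 10 were at an unadjusted p under 0.05, against 33.7% of all genes. The 7 lower members were Col6a3, Thbs1, Pdgfrb, Pdgfra, Col1a2, Col14a1 and Fbln5. Col6a3, a chain of microfibrillar collagen VI, was at 52.7, 26.8 and 30.3 CPM in fl/fl, against 8.49, 11.7 and 22.3 CPM in Pt-CrAT, without overlap (log2 fold change -1.33, SE 0.35, adjusted p = 0.0193). Pdgfrb was at 28.3, 14.4 and 14.6 CPM and 7.21, 7.56 and 10.6 CPM (log2 fold change -1.15, SE 0.34, adjusted p = 0.0293). Pdgfra was at 11.7, 5.28 and 7.4 CPM and 3.74, 3.45 and 5.16 CPM (log2 fold change -0.94, SE 0.25, adjusted p = 0.0191). For all 3, the groups did not overlap and fl/fl library Wt12MLFD326 was the highest of the 6. At 12 months the groups separated in the lower direction for 7 of 40 members and 13.8% of all genes. In the higher direction they separated for 4 of 40 members and 16.3% of all genes, so separation alone sets no member apart.

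Col14a1, a collagen that binds fibril surfaces, was at 34.4, 21.6 and 24 CPM in fl/fl, against 12.5, 16.5 and 15.6 CPM in Pt-CrAT (log2 fold change -0.84, SE 0.21, adjusted p = 0.0155). Col1a2 was at 22.1, 9.35 and 12.2 CPM and 5.84, 6.82 and 9.84 CPM, with 1 Pt-CrAT library above 1 fl/fl library (log2 fold change -0.92, SE 0.29, adjusted p = 0.0355). Thbs1, thrombospondin, which can activate latent TGF-beta, was at 4.96, 1.67 and 1.97 CPM and 1.0, 0.986 and 1.3 CPM (log2 fold change -1.31, SE 0.42, adjusted p = 0.0381). Again library Wt12MLFD326 was highest for each. Fbln5, a protein of elastic fibre assembly, was at 61.4, 41.2 and 57.3 CPM and 35.2, 38.7 and 35.8 CPM, without overlap (log2 fold change -0.55, SE 0.18, adjusted p = 0.0384).

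The 2 higher members were Timp2 and Sparc. Timp2 was at 88.5, 87.6 and 76.3 CPM in fl/fl, against 139, 126 and 110.2 CPM in Pt-CrAT (log2 fold change 0.57, SE 0.17, adjusted p = 0.0318). Sparc, a collagen-binding matrix protein, was at 141, 219 and 287 CPM and 354, 359.7 and 302 CPM (log2 fold change 0.65, SE 0.22, adjusted p = 0.0438). Both separated the groups, with library Wt12MLFD326 lowest for Sparc. Other core members did not pass at 12 months. Col1a1 was at 13.3, 12.5 and 14 CPM in fl/fl, against 10, 15.6 and 10.2 CPM in Pt-CrAT (-0.15, SE 0.29), and Col3a1 at 7.28, 3.81 and 8.48 CPM and 2.74, 5.09 and 4.601 CPM (-0.63, SE 0.44). Acta2 was at 22.5, 30.9 and 24.3 CPM and 16.2, 31 and 29.2 CPM (-0.02, SE 0.21). Groups overlapped for these 3, as they did for Fn1 (15.8 ± 3.42 and 12.9 ± 3.56 CPM), Timp1 (0.439 ± 0.269 and 0.578 ± 0.496 CPM) and Tgfb1 (6.68 ± 2.83 and 8.09 ± 0.447 CPM; SD, n = 3 each).

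The 12-month calls depended on single libraries. There were 0 calls without fl/fl library Wt12MLFD326, 0 without Pt-CrAT library CrAT12MLFD328 and 1 without Pt-CrAT library CrAT12MLFD337. In a fit of the 12-month libraries alone there were also 0, and limma-voom called 5 (3 lower and 2 higher), where 12.5% of all genes passed in its fit. None of the 9 changed sign in these fits, and Col6a3 was at -0.97 without library Wt12MLFD326 (adjusted p = 0.147).

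Markers of other cells differed at 12 months too, where 16.4% of all genes passed, 8.41% as higher and 7.95% as lower. With both directions together, the counts of smooth muscle and pericyte markers, matrix glycoproteins and pathway genes below lie near 16.4%. Adipocyte markers passed as higher in Pt-CrAT in 6 of 7 (Adipoq 5.01, Cfd 4.18, Retn 4.62, Cidec 3.77, as log2 fold changes), with a summed level of 352.6 to 881.4 CPM in Pt-CrAT and 133.4 to 275.5 CPM in fl/fl. Fibroblast markers that are no members passed as higher in 5 of 11 (Clec3b 3.61, Dpt 2.97, Pi16 1.45, Cygb 1.21), at 178.3 to 205.5 CPM in Pt-CrAT and 128.8 to 173.4 CPM in fl/fl. Of these 11 markers 7 were above 0 and 4 below, the lowest at -0.89, and none passed as lower. In the same libraries all 5 fibrillar and associated collagens had a change below 0 (median -0.63). Of these Col1a2 and Col14a1 passed as lower, as did Pdgfra, while Col1a1 (-0.15) did not pass. The 3 small leucine-rich proteoglycans were above 0 (median 0.20), Dcn at 0.20 and Lum at 0.12, and none passed. Fbln1 (0.49) and Mmp2 (0.69) did not pass either, although their groups did not overlap. Over all 40 members 15 were above 0 and 25 below. Smooth muscle and pericyte markers that are no members passed as higher in 2 of 13, Lmod1 (1.23) and Des (0.74), with 9 of 13 above 0 and a summed level of 277.3 to 327.8 CPM in Pt-CrAT and 201.3 to 289.1 CPM in fl/fl. Immediate early genes, which respond to handling, passed as lower in 2 of 8, Junb (-1.34) and Dusp1 (-1.21), at 44.53 to 68.8 CPM in Pt-CrAT and 68.6 to 171.5 CPM in fl/fl. Further matrix lists were mixed at 12 months. Of 29 further proteases and inhibitors 3 passed as higher, Timp4 (3.94) among them, and 5 as lower, including Plau (-1.74), Mmp3 (-3.72) and Ctsl (-0.99). Of 25 matrix glycoproteins 1 passed as higher, the elastic microfibril protein Mfap5 (1.56), and 3 as lower, Mfap2 (-1.22), Efemp1 (-0.77) and Spp1 (-0.74). Of 28 TGF-beta and PDGF pathway genes 4 passed, all lower, Tgif1 (-1.52), the ligand Pdgfb (-2.24) and the receptors Tgfbr3 (-0.95) and Tgfbr2 (-0.76). The mesangial list, which holds Pdgfrb, passed as lower in 2 of 6 (Itga8 -1.31 beside Pdgfrb). The part of adipose or other stromal tissue and of handling in these differences was not tested.

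At 15 months, between the libraries labelled Pt-CrAT and fl/fl, no member passed. By edgeR 0 of 40 were at an unadjusted p under 0.05, where 8.29% of all genes were and 0.00% passed adjusted. Changes above 0 were counted for 24 of 40 members and 50.8% of all genes, and DESeq2 and limma-voom called 0. The smallest p-values were those of Col1a2, Pdgfrb, Fbln5 and Col6a3, 4 of the members lower at 12 months. All 4 correlated negatively with the library score described further on, which also separated the labelled groups at 15 months. Pdgfrb was at 18.1, 18.3 and 18.8 CPM in the libraries labelled fl/fl and 15.1, 7.93 and 11.2 CPM in those labelled Pt-CrAT (log2 fold change -0.69, SE 0.34, adjusted p = 0.581). Col6a3 was at 34, 36.6 and 36.8 CPM and 29.1, 21.4 and 16.4 CPM (log2 fold change -0.68, SE 0.35, adjusted p = 0.581). Both separated the labelled groups, which 2 members did in the lower direction and 1, Sparc, in the higher, against 12.7% and 11.6% of all genes. Col1a2, with values given above (-0.58, SE 0.28), and Fbln5, at 57.5, 51.7 and 49 CPM and 51.6, 39.3 and 34 CPM (-0.34, SE 0.18), overlapped. Over the mean of the 3 ages, 0 members and 0.0266% of all genes passed (8 members and 20.5% of all genes at an unadjusted p under 0.05). There 20 of 40 members and 50.8% of all genes had a change above 0. DESeq2 called 1 member there, and 1.48% of the genes with an adjusted p.

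**Figure D3:**
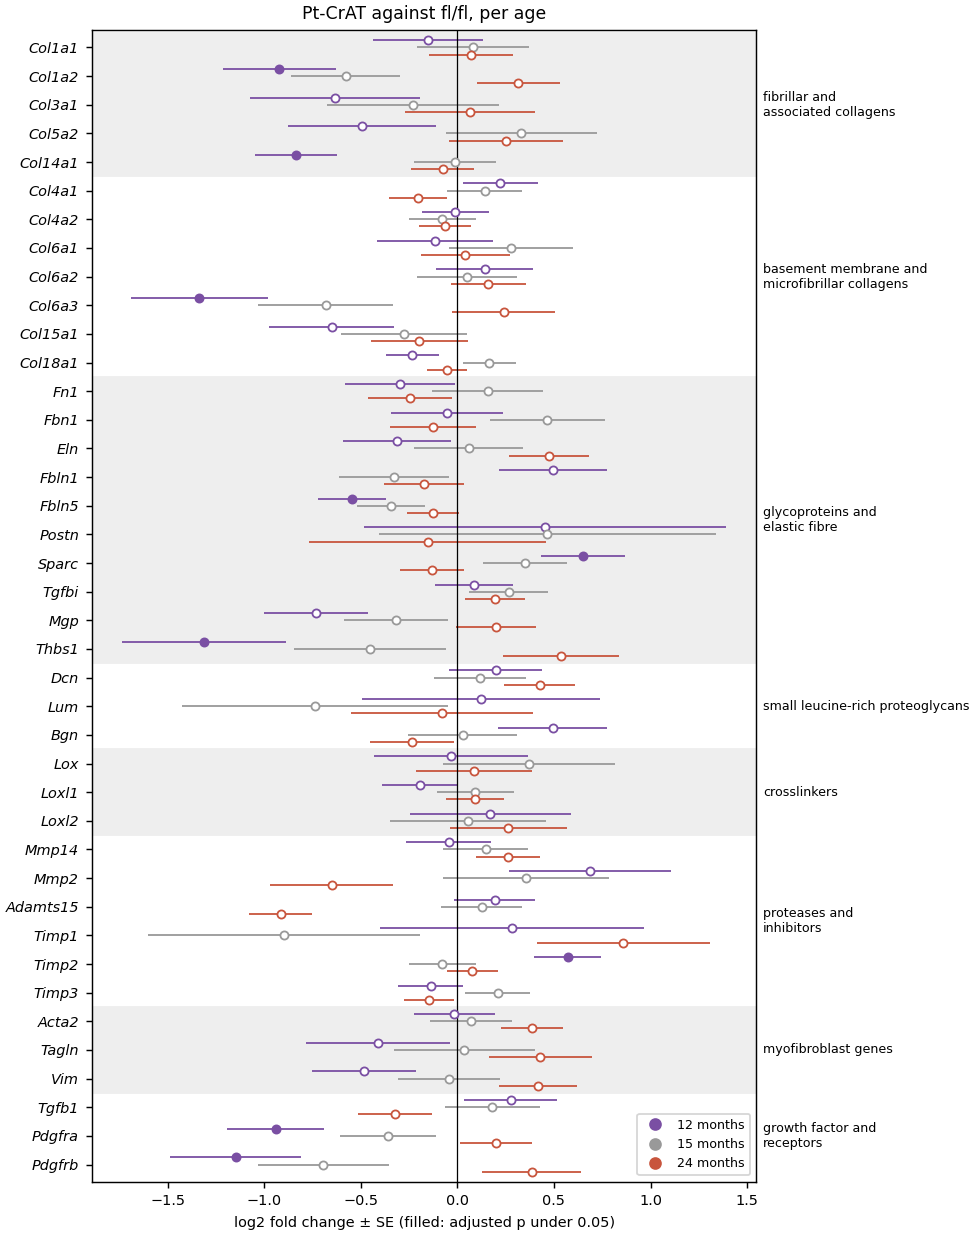
Log2 fold change of Pt-CrAT against fl/fl with its SE for the 40 members, grouped by role, at 12 (purple), 15 (grey) and 24 months (red), filled where the adjusted p was under 0.05. The 9 filled points are all of 12 months, 7 of them to the left of 0.

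**Figure D4:**
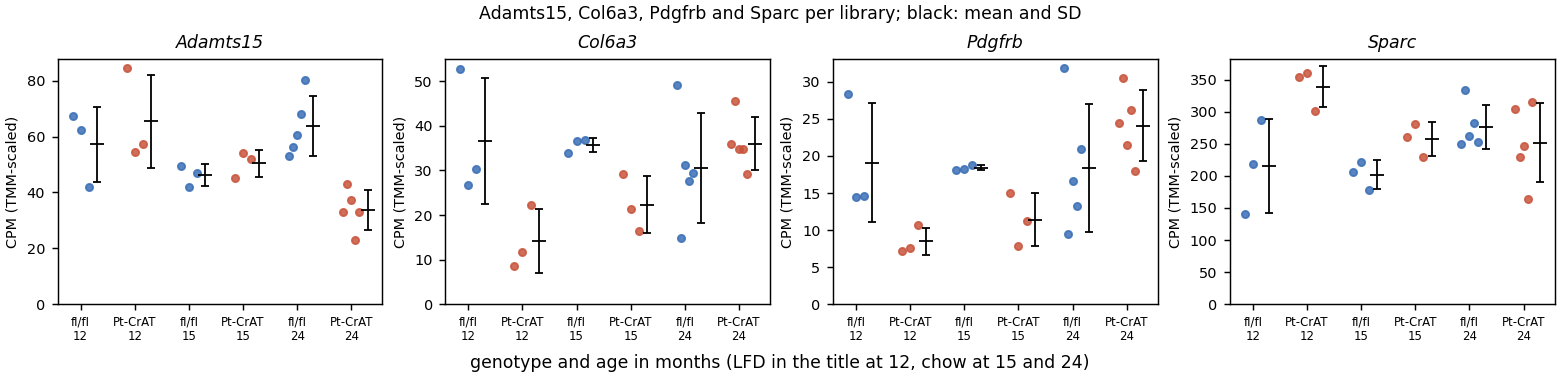
Levels of Adamts15, Col6a3, Pdgfrb and Sparc in each library (points; blue fl/fl, red Pt-CrAT) against genotype and age in months, with group mean and SD in black and CPM from 0. The Adamts15 groups separate at 24 months, and those of the other 3 genes separate at 12 and at 15 months.

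The members did not move as 1 block between libraries of the same group. The first axis of variation within groups, computed from 9921 genes that are no members, held 41.6% of the within-group variance, and each library has a score on it. The score spread from -38.4 (fl/fl Wt12MLFD326 at 12 months) to 26.5 (fl/fl Wt24Mchow154 at 24 months). Across the 22 libraries, as deviations from group means, 5 members correlated with this score below -0.5 (Pdgfrb -0.88, Col6a3 -0.80, Col1a2 -0.78, Pdgfra -0.75 and Vim -0.68). At the other end 6 members correlated above 0.5 (Sparc 0.87, Bgn 0.81, Col4a1 0.72, Tgfb1 0.65, Tgfbi 0.60 and Fbn1 0.53). Acta2 (0.27), Mmp14 (0.16), Lox (0.23), Adamts15 (-0.08) and Col1a1 (-0.04) lay near the middle.

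The 7 members lower at 12 months all had a negative correlation with the score and the 2 higher ones a positive one. Of all 40 members 20 correlated negatively and 20 positively. Library Wt12MLFD326, lowest on the score, enters both the correlations and the 12-month calls, so the 2 are not independent. Projected without centring by group, the lowest, median and highest score at 12 months were -50.6, 3.3 and 10.7 in fl/fl and 8.4, 37.9 and 38.1 in Pt-CrAT. At 15 months they were -22.5, -19.0 and -12.8 in libraries labelled fl/fl. Those labelled Pt-CrAT had -3.2, 0.6 and 13.1 at that age, without overlap. With the score as a covariate in edgeR, a step chosen after the data were seen, 0 members and 0.0863% of all genes passed at 12 months. Col6a3 was then at -0.52 (adjusted p = 0.386). The covariate was the score not centred by group, which differed between the genotypes at 12 months. The fit therefore cannot separate score from genotype there, and nothing is concluded from the lost calls. In the same fit 19 members passed with age over the mean of genotypes, all 19 higher, where 24.6% of all genes passed. The GC content of the last 300 bases of the transcript moved with the correlation, with a Spearman coefficient of 0.53 over the 40 members and 0.35 over 9517 genes, as a description of points that share libraries. The median correlation with the score was -0.29 among the genes of lowest GC (up to 36%) and 0.45 among those of highest GC (49% to 70%). What the score measures was not tested.

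**Figure D5:**
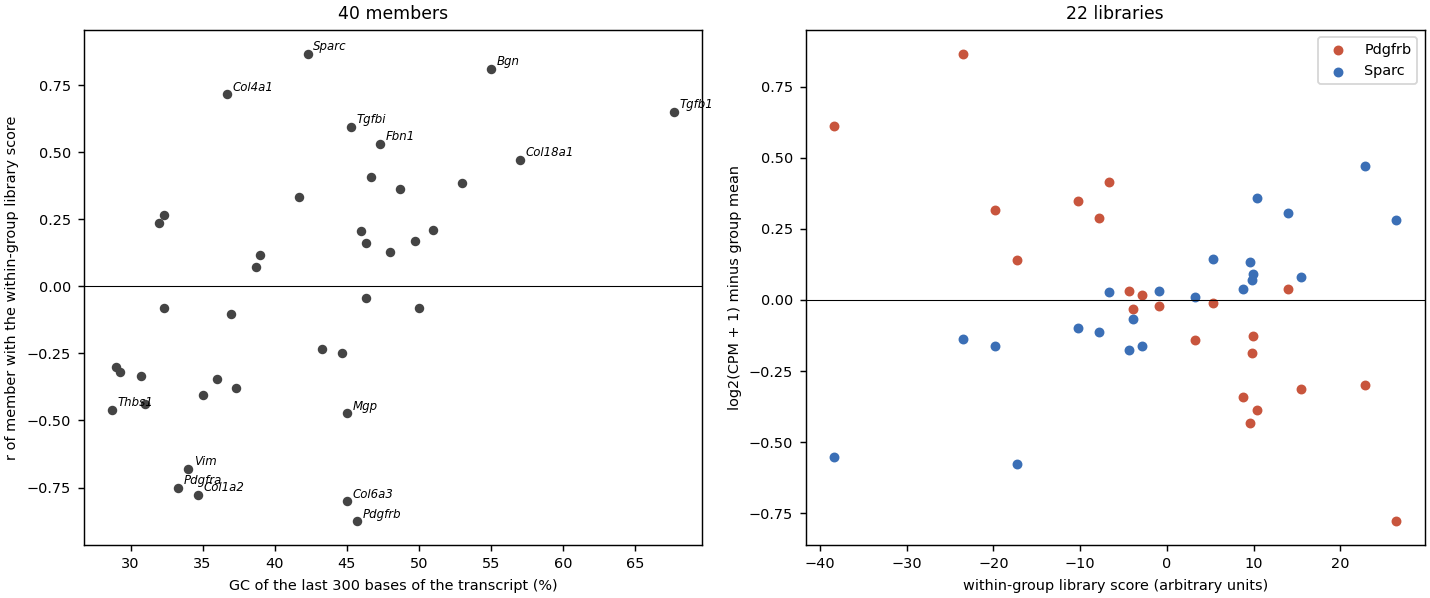
Left, each member's correlation with the library score against the GC content of the last 300 bases of its transcript (percent); right, log2(CPM + 1) of Pdgfrb (red) and Sparc (blue) minus the group mean against the score of the 22 libraries. Pdgfrb falls and Sparc rises along the score, with correlations of -0.88 and 0.87.

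The correlations given here for chains that assemble into 1 protein were 0.49 or lower. Col6a1 and Col6a2 had group means of only 2.02 to 3.70 and 2.97 to 4.22 CPM, a level at which counting noise can lower a correlation. Within groups, over 22 libraries that share depth and scaling, Col1a1 and Col1a2 correlated at 0.41, Col4a1 and Col4a2 at 0.49 and Col6a1 and Col6a2 at -0.07, while Col1a1 and Col3a1 reached 0.83, Col1a2 and Col6a3 0.81, and Pdgfra and Pdgfrb 0.82. Counted as reads, Col1a1 over Col1a2 was 0.60, 1.34 and 1.14 in fl/fl and 1.72, 2.29 and 1.04 in Pt-CrAT at 12 months, and lay between 0.37 and 0.89 in every library of 15 and 24 months. Library Wt12MLFD326, lowest on the score, had the lowest ratio at 12 months. Acta2 correlated with Tagln at 0.27 and with Col1a1 at 0.18. The 10 genes outside the members most like the summed Col1a1, Col1a2 and Col3a1 were Bloc1s4, Paip1, Pfdn2, Cpq, Med21, Lamp2, Nudcd2, Smim8, Xpr1 and C1d, at correlations of 0.78 to 0.83 over the 22 libraries. Each of the 10 also correlated negatively with the library score, at -0.45 to -0.79. Of the summed genes Col1a2 itself was at -0.78 with the score, Col3a1 at -0.32 and Col1a1 at -0.04. The shared sign can therefore follow from how the 10 were picked, and nothing is concluded from it.

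Levels over the 6 groups can be ordered only loosely. Timp2 had its lowest group mean in fl/fl at 12 months (84.1 ± 6.83 CPM) and its highest in Pt-CrAT at 24 months (259 ± 33.6 CPM; SD, n = 3 and 5), with fl/fl at 24 months next (245 ± 42.3 CPM) and within its spread. Acta2 was lowest in fl/fl at 15 months (22.5 ± 4.37 CPM) and within the spread of the other 3 groups of 12 and 15 months, and highest in Pt-CrAT at 24 months (48.6 ± 6.65 CPM). Bgn was highest in Pt-CrAT at 12 months (972 ± 252 CPM) and lowest in fl/fl at 15 months (449 ± 59.5 CPM). Col3a1 had group means of 4.14 ± 1.24 CPM in Pt-CrAT at 12 months to 6.72 ± 2.79 CPM in Pt-CrAT at 24 months, closer together than the libraries of 1 group. Of the 40 members 12 had a mean under 5 CPM over all libraries.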

How the data were processed

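Kidney cortex RNA was read by QuantSeq 3' sequencing, which counts tags near transcript ends. The authors deposited a table of raw read counts per gene, used here for every test and level, and a table of signal, counts divided by DESeq2 size factors, used as a check on levels. The submitters' processing notes name GRCm38, R 3.4.3 and DESeq2 1.18.1. For the aligner, the counter and its strand setting the sources used here give no name. Titles carry 1 number per library, and nothing in the labels says that each is a separate animal, so p-values measure the spread between these samples, which may be technical.

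Counts were filtered with filterByExpr over the 6 groups (15064 of 16556 genes kept), scaled by TMM and fitted with edgeR 4.0.16 in R 4.3.3 by the robust quasi-likelihood F test on all 22 libraries, with Benjamini-Hochberg adjustment over all genes tested and a threshold of 0.05. The fit had 16 residual degrees of freedom and a biological coefficient of variation of 20.5%. The members and the lists were chosen with earlier results of these data known. Values per library are given for members past the threshold in a contrast (the 8 with the smallest p where more passed), for the 4 members with the smallest p where none passed, and for Col1a1, Col3a1, Fn1, Acta2, Timp1 and Tgfb1, and other values by choice. Of each other list, up to 4 genes past the threshold with the smallest p are named. Scripts were tested on simulated data.

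Alternatives were DESeq2 1.42.0, limma-voom 3.58.1, RLE scaling, no filter, no robust step, fits on the groups compared and each library left out. The fits without libraries that stand apart and with the library score were chosen after seeing the data.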

Additional observations from a re-analysis of the deposited data

Results flagged for a closer look

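In 5 groups of 5 libraries, of 80 such groups over the 40 members, 1 library stood apart by a gap test (Dixon), where chance gives about 1 in 20. Col4a2 was at 29.2 CPM in fl/fl library Wt24Mchow154 at 24 months, against 41.6 to 43.3 CPM in the other 4. Lum was at 2.65 CPM in fl/fl library Wt24Mchow145 at 24 months, against 0.771 to 1.28 CPM. In Pt-CrAT at 24 months, Col6a2 was at 4.92 CPM in library CrAT24Mchow123, against 3.85 to 4.15 CPM. Timp2 was at 316 CPM in the same library, against 233 to 256 CPM, and its rise with age passed without that library. Loxl1 was at 17.7 CPM in library CrAT24Mchow136, against 24.9 to 26.9 CPM. CrAT24Mchow123 and CrAT24Mchow136 are also the 2 libraries lowest for the summed proximal tubule markers. The part of that in these values was not tested.

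The genotype difference of Adamts15 varied among the 3 ages by the edgeR test of that variation (adjusted p = 0.0273), with Pt-CrAT against fl/fl at 0.19 at 12 months, 0.13 at 15 months and -0.91 at 24 months on the log2 scale.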

How the results depend on the processing

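None of the 55 member changes that were rerun (those called, or the 4 with the smallest p where none was) changed sign in an alternative. Other printed member changes were not rerun. The median over the members kept its sign for the 3 age contrasts and for genotype at 24 months. It changed sign in 1 of 14 alternatives at 12 months (range -0.27 to 0.01), 4 of 13 at 15 months (-0.06 to 0.12), 9 of 28 over the mean of 3 ages (-0.09 to 0.07) and 2 of 23 for the difference between 24 and 15 months (-0.02 to 0.20). The levels of all 40 members stayed within 1 SD on the authors' scaled values. The 9 members called at 12 months became 5 by limma-voom and 0 in the fit of the 12-month libraries alone, without fl/fl library Wt12MLFD326 and Pt-CrAT library CrAT12MLFD328 together, and with the library score as a covariate. With 1 library left out they were 0 to 9. The 2 calls with age in fl/fl became 6 by DESeq2, 1 by limma-voom, without the robust step and in the fit on the groups compared, 0 with the score, and 0 to 5 with 1 library left out. The 12 in Pt-CrAT became 7 without libraries CrAT24Mchow123 and CrAT24Mchow136 and 2 to 12 with 1 library left out, and the 16 over the mean of genotypes 10 to 18. The test among ages called 6 members by DESeq2, 0 with the score and 0 to 6 with 1 library left out. The 0 at 24 months became 0 to 1, and the 0 over the mean of 3 ages 0 to 1 with 1 library left out and 1 by DESeq2. The cause was not tested. Over all genes, counts moved as well, from 2464 at 12 months to 1 in the fit of that age alone, 19 without the same pair of libraries, 13 with the score and 53 to 3513 with 1 library left out. With age in fl/fl 196 became 731 by DESeq2, 102 with the score and 3 to 756 with 1 library left out. In Pt-CrAT 1705 became 417 without the 24-month pair, 2742 with the score and 393 to 1777 with 1 left out. Among ages 764 became 2332 by DESeq2, 0 with the score and 2 to 2195 with 1 left out. Over the mean of genotypes the lowest count was 1453, without library CrAT15Mchow204, of 2467. Over the mean of ages 4 became 178 by DESeq2, 0 with the score and 1 to 262 with 1 left out. At 15 months 0 became 4 in the fit of that age alone, at 24 months 0 became 6 by DESeq2 and up to 2 with 1 left out, and for the difference between 24 and 15 months 0 became 15 by DESeq2. No paired analysis was possible because no replicate numbers are shared between groups. The mean level was under 5 CPM for 12 members, of which Lox, Eln, Col6a1 and Tagln passed with age over the mean of genotypes.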
